A study of Homo sapiens with 10 samples.

Results

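The stretch of human chromosome 10 around DKK1 was examined in 8 CUT&RUN peak lists, from 53700000 to 54800000 of the build hg19 (chr10:53700000-54800000). It was chosen because many BRD9 peaks seen in control cells had no counterpart there once SMARCB1 was induced, so it was selected on the BRD9 peak calls themselves, and the difference in BRD9 between the groups is described and was not tested. Every peak that shares at least 1 base with the window is a member. There were 392 such peaks of 543439 in the 8 lists. Overlapping BRD9 peaks were joined into regions, of which 99 of 119939 lay in the window, and SMARCB1 peaks found in both replicates were joined into 45 of 87773 regions.

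The study asked how forms of the SWI/SNF chromatin remodeller depend on each other in cancer cells without SMARCB1. CUT&RUN uses an antibody to direct a nuclease that releases the DNA around its target for sequencing. All samples came from G401, an established rhabdoid tumour line labelled SMARCB1(-/-). They differ in the gene switched on with doxycycline and in the antibody. BRD9 was profiled with a rabbit polyclonal antibody (Abcam) in 3 samples after induction of GFP, the control protein, and in 3 samples after induction of SMARCB1. SMARCB1 was profiled with a rabbit monoclonal antibody (Cell Signaling Technologies) in 2 samples after induction of SMARCB1. The SMARCB1 sample of GFP-induced cells and the rabbit IgG sample of SMARCB1-induced cells were not analysed here as samples of their own. Both groups share the SMARCB1(-/-) genotype of the line and an induced transgene, which in the SMARCB1-induced group is SMARCB1 itself. All samples come from a single line, so other rhabdoid cells are not represented. Doses, induction times and the origin of the replicates are not given in the sources used here, so the spread between replicates may be technical.

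DKK1 encodes a secreted antagonist of Wnt signalling, which binds the co-receptors LRP5 and LRP6 and so keeps Wnt ligands from switching on β-catenin. BRD9 is a bromodomain protein of the non-canonical BAF form of SWI/SNF, a form that is built without SMARCB1. SMARCB1 is a core subunit of the other forms, canonical BAF and PBAF, and its loss defines most rhabdoid tumours. By gene order in RefSeq (GRCh38.p14), the nearest protein-coding neighbours that begin on either side of DKK1 are CSTF2T, which encodes an RNA cleavage factor subunit, and MBL2, which encodes a lectin of innate immunity. The entry directly before DKK1 is the long non-coding RNA PRKG1-AS1. This order goes by where genes begin, so a long gene that begins further off may reach closer to DKK1 and into the window. Between DKK1 and MBL2 that annotation lists only pseudogenes and long non-coding RNAs, among them LNCAROD, also named A-ROD. DKK1 itself spans chr10:54074056-54077417 in hg19 and is read towards higher coordinates. Distances below are taken from its start, and downstream means past it.

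The promoter is shown because a BRD9 region found only in control cells and a SMARCB1 region meet at the start of DKK1. The 250 bases before the RefSeq start (GRCh38.p14, strand of the gene, 5′ to 3′) were matched by gene symbol. Capitals mark a TEAD motif, GGAATG, which begins 50 bases before the start, and a TATA box, TATAAA, which begins 30 bases before it.
DKK1 promoter: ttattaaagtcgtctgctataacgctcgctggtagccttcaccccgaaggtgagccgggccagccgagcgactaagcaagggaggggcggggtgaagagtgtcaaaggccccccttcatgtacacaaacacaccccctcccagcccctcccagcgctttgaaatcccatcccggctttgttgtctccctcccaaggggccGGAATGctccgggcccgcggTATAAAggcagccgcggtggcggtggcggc
The TEAD motif was searched on both strands and is held by 11.9% of 35116 promoters of this length. The TATA box was searched on the gene's strand only and is held by 6.80%. The short CTCF core, CCCTC, matched 4 times on either strand, and 66.6% of promoters hold it. The AP-1 motif, TGANTCA, had 0 matches on either strand and is in 6.57% of promoters, which says only that these letters are not in this window. The GC content was 62.8%, against a median of 58% over the promoters. The sequences of the other regions were not analysed here.

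The BRD9 libraries held between 10.1 and 13.9 M (1e6) reads and the SMARCB1 libraries 64.2 and 59.7 M. The same control library of 23.1 M reads served all 6 BRD9 lists, and the SMARCB1 lists had a control library of 49.6 M reads. By the names of the deposited SMARCB1 lists, the latter appears to be the SMARCB1 sample of GFP-induced cells. Over the genome the number of BRD9 peaks averaged 39917 ± 5296 in the GFP group and 42894 ± 3292 in the SMARCB1 group (SD, n = 3 each), so the groups' lists were of similar length. Each list gives, per peak, its reads and their density in RPKM, which is the reads divided by the peak length in kb and the library size in M. It holds no value outside its own peaks. A median peak of the window had 21 to 27 reads in the BRD9 lists, so the absence of a peak does not show the absence of BRD9.

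In the DKK1 window the GFP-induced lists held 60, 67 and 62 BRD9 peaks, and the SMARCB1-induced lists held 7, 9 and 13. The groups did not overlap: the means were 63 ± 3.61 and 9.67 ± 3.06 peaks (SD, n = 3 each), a ratio of 6.52, while their numbers over the genome did overlap. The peaks covered 68.5, 72.9 and 73.6 kb of the window in GFP-induced cells. They covered 4.84, 5.40 and 8.74 kb in SMARCB1-induced cells. The mean covered length was thus 11.3 times as long in the control cells. Reads in the window's peaks numbered 3203, 5181 and 3522 with GFP and 175, 193 and 363 with SMARCB1 induced. As a share of all reads in a list's peaks, they were 0.180%, 0.328% and 0.220% against 0.00828%, 0.0121% and 0.0177%. Cells were profiled in bulk, and fewer cells with BRD9 at a site cannot be told apart from less BRD9 per cell.

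The window's BRD9 peaks in SMARCB1-induced cells were not only fewer but also included no tall or wide ones. They were partly at other sites. Of the regions without a GFP-induced peak, 3 were in all SMARCB1-induced lists and 6 in 1 or 2 of them. The values below therefore compare partly different sites. The median density hardly differed, with 3.28, 3.30 and 3.43 RPKM in the GFP-induced lists and 2.95, 3.40 and 2.83 RPKM in the others. The densest peak of each list reached 9.36, 15.1 and 8.61 RPKM in GFP-induced cells. In SMARCB1-induced cells it reached 3.53, 4.20 and 3.85 RPKM. By the authors' score, the window's best peak ranked 298, 111 and 381 in the GFP-induced lists and 7077, 5397 and 4611 in the SMARCB1-induced lists. The widest peak measured between 4463 and 6800 bp in the first group and between 1214 and 1459 bp in the second. The shared control library had a median of 0.420, 0.421 and 0.430 RPKM in the peaks of the GFP-induced lists and 0.600, 0.689 and 0.678 RPKM in those of the others, and its part in the result was not tested.

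**Figure D1:**
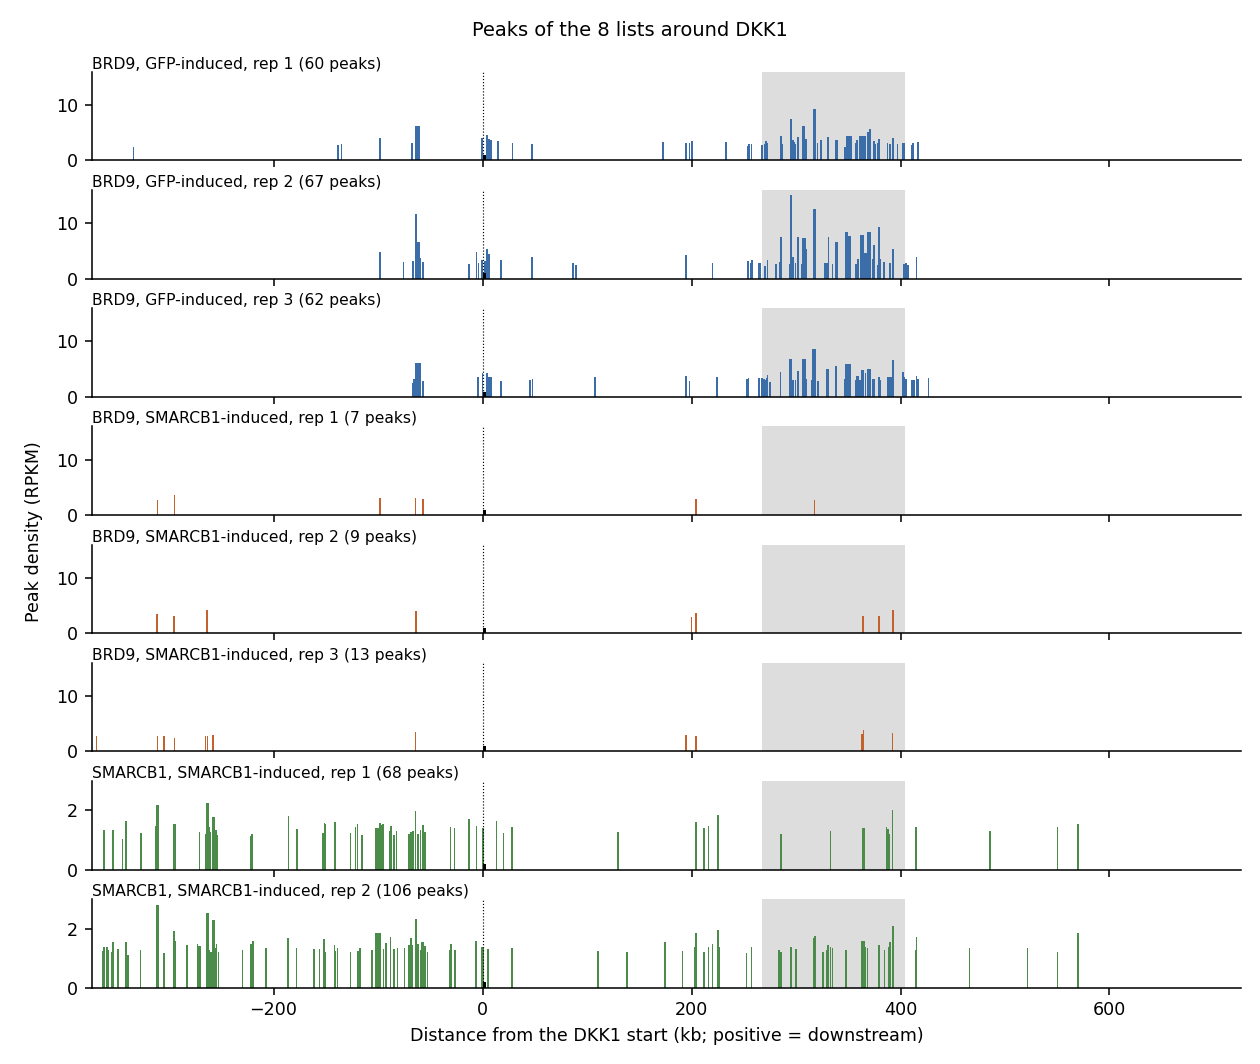
Peaks of the 8 lists by distance from the DKK1 start (kb; dotted line, gene in black), with bar height giving each peak's density in RPKM; the scale of the SMARCB1 lists is smaller. Grey marks the stretch from 267 to 405 kb downstream, which is dense in the 3 GFP-induced BRD9 lists and holds 1 to 3 peaks in each SMARCB1-induced BRD9 list.

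At the start of DKK1, all GFP-induced lists had a BRD9 peak over the start or within 105 bp of it. In replicate 1 the peak ended 105 bp before the start (chr10:54073126-54073951, 35 reads, 3.99 RPKM). In replicate 2 it ran over the start (chr10:54072801-54074501, 71 reads, 3.45 RPKM), as it did in replicate 3 (chr10:54073476-54074496, 45 reads, 4.32 RPKM). The control library had between 0.305 and 0.524 RPKM in these intervals. In SMARCB1-induced cells the nearest BRD9 peak was 56580, 63680 and 63731 bp away. Both SMARCB1 lists had a narrow peak on the start, with 1.39 and 1.34 RPKM (29 and 42 reads) over 0.868 and 0.576 RPKM in their control library. These SMARCB1 peaks ranked low, at 87580 of 133297 and 66496 of 161710.

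A BRD9 region was called lost where all 3 GFP-induced lists and none of the SMARCB1-induced lists had a peak, and gained in the opposite case. Of the 99 regions of the window 19 were lost (19.2%, 95% Wilson interval 12.6 to 28.0%, counting error only). Over the genome 1.04% of regions were lost. Single lists move the latter value: it was 2.44%, 4.08% and 2.48% without GFP-induced replicates 1, 2 and 3, where 28, 24 and 23 regions of the window were lost, and 1.69% without SMARCB1-induced replicate 1, where 20 were. This call is the basis on which the window was chosen, so the excess is a description. Of the 25 regions with a peak in all 3 GFP-induced lists 76% were lost, and over the genome 13.2%. There were 3 gained regions (3.03%, against 6.85% over the genome) and 1 region with a peak in all 6 lists (4.67% over the genome). Another 7 regions had peaks in some lists of both groups, 63 in 1 or 2 GFP-induced lists only and 6 in 1 or 2 SMARCB1-induced lists only. With calls in at least 2 of the 3 lists, 32 regions were lost and 4 gained, where 5.7% and 12.6% of all regions were. The window had 17.3 lost regions per Mb, and the rest of chromosome 10 had 0.342 per Mb (46 regions).

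The lost regions lay at DKK1 and downstream of it, and none lay further upstream. More than 10 kb upstream there were 18 regions, with 0 lost, 2 gained and the 1 present in all 6 lists. Only the latter had a peak in all 3 GFP-induced lists, which a call as lost requires. Within 10 kb of the gene 3 of 8 regions were lost and the other 5 were found in 1 or 2 GFP-induced lists. From there to 267 kb downstream 2 of 26 were lost. The stretch from 267 to 405 kb downstream held 14 lost regions of 39, and beyond it 0 of 8 were lost. Those 8 were all found in 1 or 2 GFP-induced lists only, so none could be called lost. The groups' covered lengths did not overlap in any of these sections. The window was chosen on this contrast and covered length was not computed elsewhere in the genome, so how common this is was not tested. Upstream, where the gap was narrowest, GFP-induced cells had 7.63 ± 0.546 kb and SMARCB1-induced cells 3.82 ± 1.79 kb (SD, n = 3 each), with 6 ± 2 against 5.67 ± 2.08 peaks. In the downstream stretch they had 50.8 ± 0.788 and 1.55 ± 1.08 kb. That stretch held 36, 37 and 36 peaks of the GFP-induced lists and 1, 3 and 3 of the SMARCB1-induced lists.

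Next to DKK1, the 3 lost regions formed a group that ended 6.62 kb past the start. The first, chr10:54072801-54074501, covers the start and had 3.99, 3.45 and 4.32 RPKM. The region chr10:54077601-54079215, just past the end of the gene, had 4.53, 5.37 and 4.26 RPKM, a mean of 4.72 ± 0.581 (SD, n = 3). The third, chr10:54079345-54080676, had 3.87, 4.39 and 3.60 RPKM. The control library had 2, 2 and 5 reads in these peaks, a mean of 0.125 RPKM. Between the gene and the stretch further downstream, the lost regions were chr10:54121037-54122226 (2.94, 3.93 and 3.13 RPKM) and chr10:54327751-54328726 (2.60, 3.23 and 3.36 RPKM). Both had few reads, between 12 and 32 per list, and the nearest SMARCB1 regions, chr10:54101976-54102801 and chr10:54298726-54300201, were 18236 and 27550 bp away.

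The downstream stretch, chr10:54341501-54478623, spans 137 kb. It was drawn by joining regions present in all 3 GFP-induced lists that lay within 12.5 kb of each other, as is done for super-enhancers; this distance was chosen after the data were seen. Of its 18 such regions 14 were lost, 4 had a peak in some SMARCB1-induced list, and 0 had a peak in all 6 lists. Of 4343 stretches drawn in the same way on the numbered chromosomes and X, none had more lost regions, and the next had 7 (chr6:112617201-112653029). This rank is a description, since the window was chosen on its lost regions. By number of regions the stretch ranked 29, by length 24 and by reads 45. With 5 kb as the distance it broke up, and its part from 54367550 to 54384226 held 5 lost regions, as many as the next stretch. With 25 kb it began at 54327751 and held 15, against 9 in the next.

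**Figure D2:**
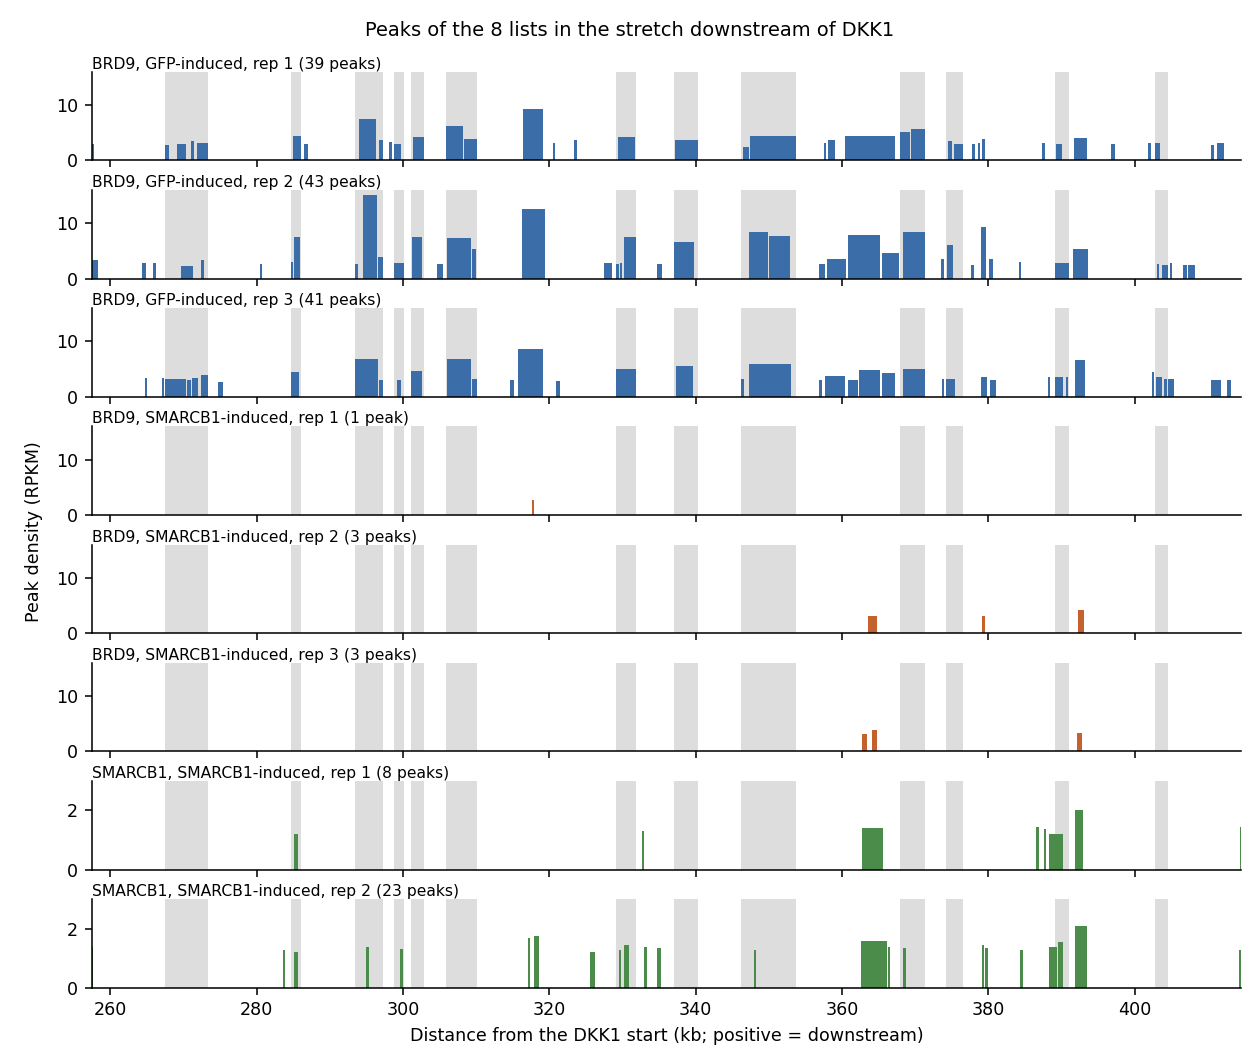
Peaks of the 8 lists from 10 kb before to 10 kb past the downstream stretch, by distance from the DKK1 start (kb), with bar height giving density in RPKM and grey bands marking the lost regions; peak numbers are those in the plotted range. The tallest bars of the GFP-induced lists, near 295 and 318 kb, have at most a single narrow bar below them in the SMARCB1-induced BRD9 lists.

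The densest lost region of the window was chr10:54367550-54370601, 295 kb downstream. It had 195, 349 and 215 reads and 7.57, 13.2 and 6.90 RPKM in the GFP-induced lists, over 0.339 RPKM in the control library. Replicate 2 stood above the others, and without it the mean fell from 9.22 to 7.23 RPKM. The highest points of the 3 lists' peaks lay within 476 bp of each other. The nearest SMARCB1 region was 7849 bp away, although SMARCB1 replicate 2 alone had a peak inside it, chr10:54369026-54369351. By mean rank of its score it was first of 1246 lost regions in the genome, and by mean RPKM the second.

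The region chr10:54442061-54445451, 370 kb downstream, was the second of 1246 by mean rank of its score and the ninth by mean RPKM. Its values were 190, 303 and 152 reads and 5.45, 8.40 and 4.96 RPKM, and replicate 2 was again highest. A SMARCB1 region, chr10:54436676-54440176, ended 1885 bp before it, and SMARCB1 replicate 2 alone had a peak that shared 400 bp with it. Further lost regions of the stretch ranked 7, 8, 11, 13 and 14 by score, and 10, 13, 22, 38 and 30 by RPKM. They were chr10:54380001-54384226 (5.15, 7.09 and 6.14 RPKM), chr10:54420326-54427801 (4.16, 8.04 and 5.74 RPKM), chr10:54375105-54376976 (4.23, 7.53 and 4.70 RPKM), chr10:54403226-54405926 (4.20, 6.05 and 4.96 RPKM) and chr10:54411126-54414326 (3.76, 6.54 and 5.61 RPKM). The one at 54420326 was the widest lost region of the window, with 7475 bp, and its peaks' highest points lay up to 2598 bp apart.

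The other 7 lost regions of the stretch were weaker or more uneven. The region chr10:54358682-54360176 had 4.38, 6.17 and 4.43 RPKM, and chr10:54448226-54450626 had 3.17, 6.04 and 3.27 RPKM. Replicate 2 was the highest list in both. The remaining 5 had means between 2.94 and 3.52 RPKM: chr10:54341501-54347404, chr10:54370701-54371376, chr10:54372814-54374151, chr10:54463176-54465051 and chr10:54476895-54478623. The first of these, 5903 bp wide, held only 123, 58 and 172 reads. Over all 19 lost regions, replicate 2 was the highest of the 3 lists in 13. It was so in 18 of the window's 25 regions with a peak in all 3 GFP-induced lists, which include the lost ones. The median of the regions' mean densities was 4.16 RPKM in the window and 3.22 RPKM over the 1246 of the genome, and the median width was 1871 against 1202.5 bp. These measures come from the contrast that chose the window.

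**Figure D3:**
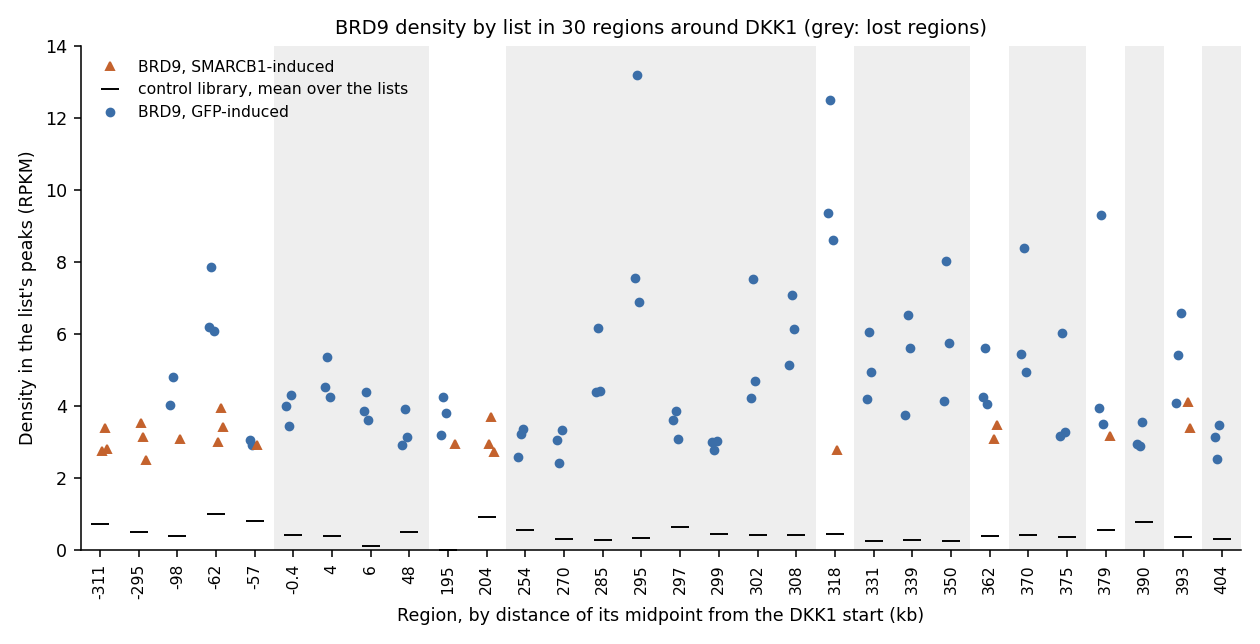
Density in RPKM of the 30 regions that were lost (grey bands), gained, present in all 6 lists or present in part of both groups, ordered by distance from the DKK1 start (kb). Circles are the GFP-induced and triangles the SMARCB1-induced BRD9 lists, 1 symbol per list with a peak, and dashes are the control library; the triangles lie between 2.50 and 4.13 RPKM, while circles reach 13.2 RPKM.

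The densest BRD9 region of the window by mean was not called lost because of a single small peak. This region, chr10:54389751-54393501, 318 kb downstream, had 9.36, 12.5 and 8.61 RPKM in GFP-induced cells, a mean of 10.2 ± 2.06 (SD, n = 3). Its peaks ranked 298, 111 and 381 in their lists. SMARCB1-induced replicate 1 had a peak of 325 bp and 11 reads there (chr10:54391626-54391951, 2.79 RPKM), and the other SMARCB1-induced lists had none. The region is thus next to the rule's edge, since without that peak it would count as lost. The nearest SMARCB1 region was 13275 bp away, but SMARCB1 replicate 2 alone had peaks inside it.

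In 3 regions the BRD9 peaks found after SMARCB1 induction were narrower than in control cells and lay wholly inside a SMARCB1 region. The region present in all 6 lists, chr10:54009216-54014985, lies upstream of DKK1, at -62.0 kb. It had 6.18, 7.86 and 6.09 RPKM over 4900 to 5535 bp of peak in GFP-induced cells. In SMARCB1-induced cells it had 3.00, 3.94 and 3.43 RPKM over 526 to 924 bp. The SMARCB1-induced peaks lay wholly in the SMARCB1 region chr10:54009001-54010951, and 61.6% of the GFP-induced peak length lay in SMARCB1 regions. Not every part with SMARCB1 had a BRD9 peak in both groups: the SMARCB1 regions chr10:54011776-54013001 and chr10:54014276-54015151 held peaks of 3 and 2 GFP-induced lists and of 0 SMARCB1-induced lists. In the stretch downstream, chr10:54430951-54441815 had 4.26, 5.63 and 4.06 RPKM over 8125 to 10140 bp in GFP-induced cells. SMARCB1-induced replicates 2 and 3 had 3.09 and 3.48 RPKM over 1214 to 1345 bp there, wholly inside the SMARCB1 region chr10:54436676-54440176, which held 36.4% of the GFP-induced peak length. The region chr10:54465628-54467651 had 4.09, 5.43 and 6.57 RPKM, and replicates 2 and 3 after SMARCB1 induction had 4.13 and 3.38 RPKM inside chr10:54465876-54467601. There 92.6% of the GFP-induced peak length already lay in SMARCB1 regions.

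The other 4 regions with peaks in both groups were small. At chr10:54453071-54453858 the GFP-induced lists had 3.96, 9.31 and 3.51 RPKM, so replicate 2 alone was high, and SMARCB1-induced replicate 2 had 3.16 RPKM. At chr10:54268276-54269121 they had 3.21, 4.27 and 3.82 RPKM, SMARCB1-induced replicate 3 had 2.96 RPKM, and the control library had no read. The remaining pair, chr10:53975514-53976005 and chr10:54016251-54017476, lay upstream in SMARCB1 regions and had peaks in 2 GFP-induced lists and in SMARCB1-induced replicate 1. In this pair too the SMARCB1-induced peaks lay wholly inside SMARCB1 regions. They had 348 bp against 412 to 468 bp, and 650 bp against 757 to 1100 bp.

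The 3 gained regions lay wholly inside SMARCB1 regions, as did at least part of 7880 of the 8217 gained regions of the genome (95.9%). Their widths, from 948 to 1316 bp, lay around the genome median of gained regions, 1082 bp. The region chr10:53762276-53763592, at -311 kb from the DKK1 start, had 2.76, 3.40 and 2.83 RPKM in SMARCB1-induced cells. The region chr10:53778633-53779651, at -295 kb, had 3.53, 3.14 and 2.50 RPKM. The third, chr10:54277911-54278859, at 204 kb, had 2.95, 3.70 and 2.74 RPKM. Their SMARCB1 regions were chr10:53761013-53764776, chr10:53778301-53780476 and chr10:54277751-54279351. No gained region lay within 10 kb of DKK1 or in the stretch with the 14 lost regions. A further region in SMARCB1-induced replicates 2 and 3, chr10:53810014-53811476, had 4.20 and 2.76 RPKM.

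SMARCB1 regions were most closely packed in the upstream part of the window, where no BRD9 region was lost. Only 1 BRD9 region there had a peak in all 3 GFP-induced lists and so could have been called lost. Of the 45 SMARCB1 regions 30 lay more than 10 kb upstream of DKK1, where they covered 13.7% of the sequence. Within 10 kb of the gene there were 2, chr10:54067501-54068726 and the one at the start, chr10:54074026-54074551. The downstream stretch held 5, covering 6.16% of it, and the section between held 5, covering 2.20%. Over the window they covered 6.14%, and over the genome 5.66%. Their mean density ran from 1.22 to 2.44 RPKM. The 5 that ranked highest were chr10:53814851-53817976, chr10:53761013-53764776, chr10:53809426-53812176, chr10:54009001-54010951 and chr10:54465876-54467601, and only the last lay downstream of DKK1. No SMARCB1 peak list of GFP-induced cells was analysed here. The names of the deposited SMARCB1 lists point to that sample as their control library. Their peaks may thus already be calls over GFP-induced cells. Whether these regions depend on the induction was not tested.

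In the window the number of BRD9 peaks at SMARCB1 regions overlapped between the groups. It was 7, 12 and 10 in the GFP-induced and 6, 7 and 9 in the SMARCB1-induced lists. Over the whole lists it did not overlap, with 9352, 14698 and 11413 against 26532, 26078 and 27517. Of the 60, 67 and 62 BRD9 peaks of the GFP-induced lists, 11.7%, 17.9% and 16.1% overlapped a SMARCB1 region. Of the 7, 9 and 13 peaks of the SMARCB1-induced lists 85.7%, 77.8% and 69.2% did. Within the window the shares differ through the number of peaks away from SMARCB1 regions, on which the window was chosen. The groups did not overlap in this share, with means of 15.2 ± 3.22% and 77.6 ± 8.24% (SD, n = 3 each). With so few peaks, the lowest 95% Wilson bound of a SMARCB1-induced list was 42.4% and the highest bound of a GFP-induced list 28.7%. These bounds give counting error only and take neighbouring peaks as independent, so they are no test of the groups. Over the whole lists the shares were 20.5%, 41.7% and 29.4% in the GFP group and 57.1%, 65.3% and 65.1% in the SMARCB1 group. Of the 7 SMARCB1-induced peaks away from SMARCB1 regions 4 overlapped a SMARCB1 peak of a single replicate. When peaks of a single SMARCB1 replicate were counted as well, the shares were 30%, 41.8% and 33.9% against 100%, 88.9% and 84.6%. Of the 45 SMARCB1 regions 13 held a GFP-induced BRD9 peak and 10 a SMARCB1-induced one. The latter 10 had a median width of 2650 bp, against 925 bp for the other 35. Among the 10 ranked highest 8 held such a peak.

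**Figure D4:**
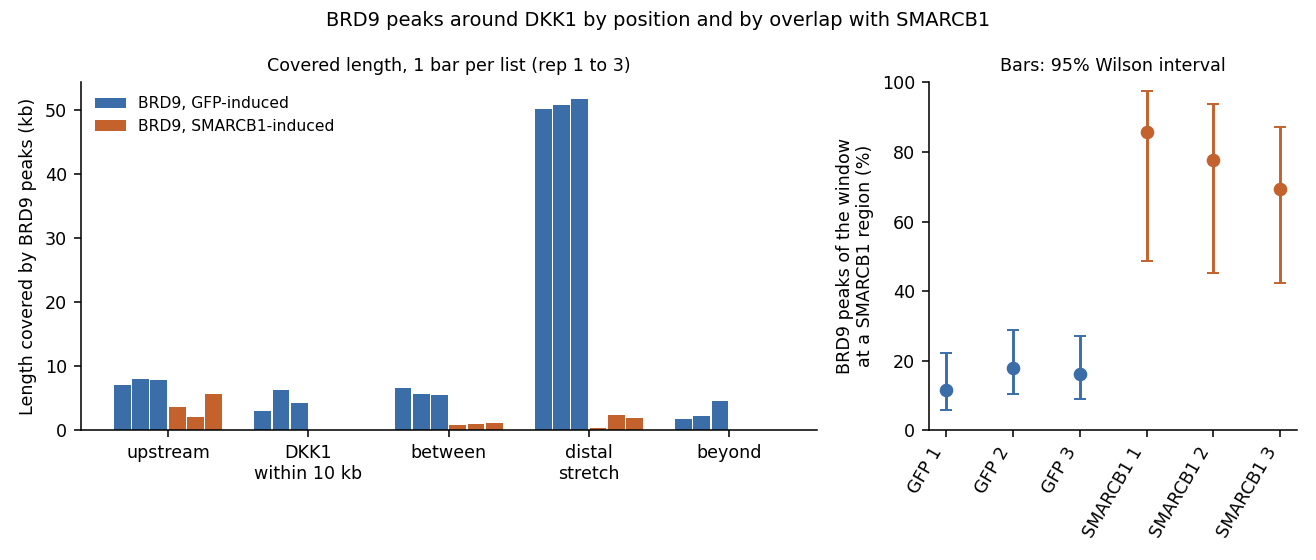
Left, length in kb covered by BRD9 peaks in each section of the window, 1 bar per list; right, percent of each list's BRD9 peaks in the window that overlap a SMARCB1 region, with 95% Wilson intervals (counting error only). The stretch downstream holds about 50.8 kb in GFP-induced cells, and the shares are 11.7 to 17.9% in GFP-induced and 69.2 to 85.7% in SMARCB1-induced lists.

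Of the 19 lost regions 3 overlapped a SMARCB1 region (15.8%, 95% Wilson interval 5.52 to 37.6%). Over the genome 354 of 1246 did (28.4%, 26.0 to 31.0%). These intervals give counting error only and take neighbouring regions as independent, while 14 of the 19 lay in the downstream stretch. Whether the shares differ was not tested. The 3 were the region at the DKK1 start, the one at 54358682, which holds the SMARCB1 region chr10:54359126-54359701, and the one at 54463176, which overlaps chr10:54462326-54464326. Of the others, chr10:54403226-54405926 came closest, 850 bp from chr10:54406776-54407426. The median distance to a SMARCB1 region was 8050 bp in the window and 4150 bp over the genome's lost regions. Counting SMARCB1 peaks of a single replicate, 10 of the 19 overlapped SMARCB1. The overlap therefore depended on SMARCB1 replicate 2, whose list was the longer of the pair in the window, with 106 peaks against 68.

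The densities of the lost regions were also set beside the range of called peaks in the SMARCB1-induced lists; they come from the lists that chose the window, and whether peaks were missed was not tested. In those lists the lowest density among peaks of at least 1 kb was 1.99, 2.28 and 2.02 RPKM over the genome. The lowest GFP-induced value at chr10:54367550-54370601, 6.90 RPKM, was above that of 91.2%, 86.1% and 91.6% of such peaks. At chr10:54442061-54445451 the lowest value, 4.96 RPKM, exceeded 74.1%, 63.9% and 75.6% of them. At the DKK1 start the lowest value, 3.45 RPKM, exceeded 39.3%, 22.5% and 39.3%, and at chr10:54341501-54347404 2.42 RPKM exceeded 4.71%, 0.208% and 3.63%. The dense regions of the stretch thus lay high in that range and the weakest at its lower edge.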

How the data were processed

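CUT&RUN libraries of G401 cells were made with the CUTANA kit and the Kapa Hyper kit, per the labels' protocols. Each deposited list holds the peaks of 1 sample in 18 columns, and no pooled list was used. The deposited read counts of sample and control are raw counts per peak, per the file headers. The RPKM values deposited by the authors equal those counts per kilobase of peak and M library reads, and library sizes were recovered from them. The log2 column deposited by the authors is the sample over the control and was not used for any result. The score is the authors' −log10 of a false discovery rate, and its lowest value was 3.98 to 4.00 in every list. BWA (0.7.12-r1039), SAMtools, bedtools, DiffBind and edgeR, and the builds hg19 and GRCh37, are named without roles in the submitters' processing notes. The peak caller and the cells of the BRD9 control library are not given in the sources used here.

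Groups and replicate numbers came from the titles. Python (3.11.15) with pandas (2.3.3) joined peaks that shared at least 1 bp. A region's density in a list is its reads over the summed length of that list's peaks in it. The code for joining and calling was run on simulated peaks, where 1200 of 1200 planted regions were recovered. These regions lay well apart and had a peak in every list that the call required, so recovery was fixed by the layout. It checks the code and not the calls among close or split peaks. Window, members, sections and lists were chosen with earlier results of these data known, and no test was run. Named were DKK1, all lost, gained and fully shared regions, the nearest SMARCB1 regions and the 5 with the highest mean rank. Across regions, deviations of lists with the same number were almost uncorrelated ( 0.0105, 0.00692 and 0.00162), so the numbers were not taken as pairs. Gene placement, Wnt pathway genes and motifs in peaks need an hg19 genome and annotation and were not analysed here.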

Additional observations from a re-analysis of the deposited data

How the results depend on the processing

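Of 172 recomputed values 131 stayed within their spread or within 1.5 times the count, 41 moved and 0 reversed. Only the peak difference could be labelled reversed. Leaving out 1 of 3 lists cannot shift a mean by more than the SD of those lists. Densities and peak differences recomputed in that way therefore had to stay, so these counts do not measure robustness. Calls in at least 2 of 3 lists gave 32 lost regions in the window (5.7% of all regions lost, 12.6% gained). The replicate block, which asks for the same direction in at least 2 same-numbered pairs and the opposite in none, gave 35 lost regions (6.68% of all regions lost, 13.9% gained); the same-numbered lists differed by 53, 58 and 49 peaks. Joining peaks within 500 bp gave 1.14% lost and 7.76% gained over the genome. Each list's upper part by score gave a peak difference of 35.7, 23 SMARCB1 regions with 0 lost regions at them, and 1.49% lost and 8.31% gained. The window widened on each side still held 19 lost regions, with 10 gained, all 10 at SMARCB1 regions, a peak difference of 43.3 and 114 SMARCB1 regions. Peaks of either SMARCB1 replicate gave 121 regions over 9.27% of the window and 10 lost regions at them; an overlap of at least 50% of the region left 1. Leaving out each list in turn gave 20 to 28 lost, 3 to 4 gained and 1 to 3 fully shared regions, 3 without SMARCB1-induced replicate 1. It gave peak differences of 51.3 to 55, 1.34 to 4.08% lost and 7.92 to 9.91% gained over the genome. Lost regions at SMARCB1 ranged from 3 to 10, with 5 when GFP replicate 1 and 10 when SMARCB1 replicate 1 was left out, and gained ones from 3 to 4. SMARCB1 regions numbered 68 to 106 over 5.37 to 8.03%. The mean density was 7.23 to 10.4 RPKM at chr10:54367550-54370601 and 5.21 to 6.93 RPKM at chr10:54442061-54445451. Fewer lists ask for fewer calls; other causes were not tested. The lists hold no reads below the authors' threshold, so a looser threshold could not be tried.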

Other observations

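Windows of the same length, 1.1 Mb, each centred on a lost region, were ranked by their number of lost regions. The 3 others with the most were chr19:57742788-58842788 with 20, chr19:52338438-53438438 with 16 and chr5:124158863-125258863 with 14. They held 334, 341 and 229 BRD9 regions, against 99 around DKK1 with 19 lost. In those on chromosome 19, 0 lost regions overlapped a SMARCB1 region, and on chromosome 5 it was 8 of 14. The 3 windows held 14, 7 and 79 SMARCB1 regions, against 45 around DKK1. Regions present in all 6 lists numbered 33, 20 and 10 there and 1 around DKK1. In the same order, the GFP-induced lists had 258, 201 and 208 BRD9 peaks in the first window, 254, 171 and 206 in the second and 161, 65 and 108 on chromosome 5. The SMARCB1-induced lists had 120, 75 and 82, then 117, 72 and 71, and 30, 23 and 31. Around DKK1 the numbers were 60, 67 and 62 against 7, 9 and 13.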
